A study of Mus musculus with 6 samples.

Results

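The relaxin family receptors are G protein-coupled receptors for relaxin and the insulin-like peptides. The 3 receptor genes considered here, Rxfp1, Rxfp2 and Rxfp3, were taken by symbol from a table of 13886 genes measured in Kiss1 cells of the medial amygdala (MeA). Of these, 2 were listed (Rxfp1 and Rxfp3) and 1 was not (Rxfp2). The family was chosen on the higher Rxfp1 level in E2 than in OVX libraries of this same table, so the E2 and OVX values of the receptors are a description and carry no test.

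RXFP1 and RXFP2 carry a large extracellular domain of leucine-rich repeats and couple mainly to Gs, which raises cAMP. RXFP1 binds relaxin, the hormone known for its role in pregnancy and in remodelling of connective tissue, and RXFP2 binds INSL3, known for testis descent. RXFP3 lacks the leucine-rich domain, binds the neuropeptide relaxin-3 and couples to Gi/o, which lowers cAMP, as does RXFP4, the receptor for INSL5. In the brain, relaxin-3 fibres and RXFP3 are known in the amygdala and in circuits for arousal, feeding and stress.

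All libraries came from Kiss1Cre+/Rpl22HA+/+ female mice, in which Cre recombinase made under Kiss1 control adds an HA tag to the ribosomal protein RPL22, so that ribosomes and their mRNA can be pulled down with an antibody (RiboTag). There were 3 OVX libraries and 3 E2 libraries, each from the MeA punches of 1 pool of 4 mice. Every mouse, also those of the OVX group, was ovariectomized at 8 weeks of age, received estradiol (E2) for 4 days and then none for 7 days. The E2 group was then given E2 for 5 days and the OVX group was not. A cell that made Cre at any time keeps the tag, pooling leaves differences between single mice unseen, and pulldowns from mice without Cre were not analysed here. Fewer cells with a transcript and less transcript per cell cannot be told apart in such libraries.

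The library sizes, rebuilt from the table and scaled, were 28076100 to 34161828 reads in the OVX group and 30262485 to 33985303 in the E2 group. As a check of the labels, the Kiss1 gene model ENSMUSG00000115958 stood at a log2 CPM (CPM, the counts of a gene scaled to library size) of 1.75 ± 0.59 in OVX and 3.66 ± 0.19 in E2 (SD, n = 3 each; limma, Benjamini-Hochberg adjusted p = 0.00475). A second model listed as Kiss1, ENSMUSG00000116158, stood at -5.82, -0.65 and 0.10 log2 CPM in OVX and at 2.97, 3.18 and 2.65 in E2, and did not pass the threshold (limma, adjusted p = 0.0942). All 8 neuron markers were listed, with summed CPM of 7654 to 7823 in OVX and 7581 to 8002 in E2. Markers of other cells were present as well. The 8 astrocyte markers summed to 1691 to 2105 CPM in OVX and 1846 to 2217 in E2, with 8 of 8 higher in E2, and the 8 oligodendrocyte markers to 1594 to 2243 and 1742 to 2461, with 7 of 8 higher. The 8 microglia markers gave 128 to 159 CPM in OVX and 123 to 144 in E2, and the 8 endothelial and mural markers gave 166 to 312 and 194 to 255. None of 6 markers of forebrain excitatory neurons and none of 6 of choroid plexus were higher in E2, with sums of 880 to 1137 against 668 to 871 CPM and of 690 to 1078 against 395 to 1019 CPM. Anterior pituitary markers, of which 3 of 8 were listed, ranged from 6.35 to 1029 CPM in OVX and from 2.02 to 228 in E2. Of the 55 listed genes in these 8 marker lists, 0 passed the adjusted p of 0.05 in limma and 10 (18.2%) had an unadjusted p under 0.05, where 8.56% of all listed genes did. Of these 10, 5 were among the 6 forebrain excitatory markers, all lower in E2, 2 each among the astrocyte and choroid plexus markers and 1 among the oligodendrocyte markers, and the part of other cells in the receptor values was not tested.

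Since the receptors are related and the reads were 75 bases long, the coding sequences were compared to see how far a read could fit more than 1 of them. The longest exact run shared by Rxfp1 and Rxfp2 was 15 bases, and the longest shared by Rxfp3 and Rxfp4 was 18 bases, the most of any of the 6 pairs. Both runs are printed with 24 coding bases on either side, read 5′ to 3′ from GENCODE M21 transcripts, and the shared run is in capitals.
Rxfp1: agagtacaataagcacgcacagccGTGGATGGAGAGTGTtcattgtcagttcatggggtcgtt
Rxfp2: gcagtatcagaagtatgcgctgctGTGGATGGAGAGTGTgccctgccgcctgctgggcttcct
Rxfp3: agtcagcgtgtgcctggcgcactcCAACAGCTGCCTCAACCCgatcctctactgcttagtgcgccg
Rxfp4: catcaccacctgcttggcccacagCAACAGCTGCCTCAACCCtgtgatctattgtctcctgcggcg
The printed stretches cover coding bases 1410 to 1472 of Rxfp1, 1389 to 1451 of Rxfp2, 1125 to 1190 of Rxfp3 and 888 to 953 of Rxfp4, counted from the A of the start codon. All shared runs were far shorter than a read, so that no full-length read lying in coding sequence could match 2 of these genes without a mismatch. Non-coding bases, the larger part of the longest Rxfp1 and Rxfp3 transcripts, were not compared.

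Rxfp1 (ENSMUSG00000034009), the relaxin receptor gene, lies on the minus strand of chromosome 3 at 79641611 to 79737880 (GRCm38). Its longest transcript has 18 exons and 5382 bases, of which 2277 are coding, and all its exons together shared no base with another gene model. Its log2 CPM was 4.38, 4.36 and 4.30 in OVX replicates 1 to 3 and 4.86, 5.12 and 5.13 in E2 replicates 1 to 3. The 3 E2 libraries were all above the 3 OVX libraries, with a gap of 0.48 between the groups. The OVX libraries lay within 0.08 of each other and the E2 libraries within 0.27, E2 replicate 1 being the lowest of its group.

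In CPM, Rxfp1 stood at 20.8, 20.6 and 19.7 in OVX and at 29.0, 34.7 and 35.0 in E2. Rebuilt from the table, these were 588, 703 and 553 reads in OVX and 878, 1178 and 1134 reads in E2. Each library thus held 553 or more Rxfp1 reads. The group means were 4.35 ± 0.04 log2 CPM in OVX and 5.04 ± 0.15 in E2 (SD, n = 3 each), a log2 difference (E2 minus OVX) of 0.69 ± 0.10 (SE of the limma fit). That is a 1.61-fold higher level in E2, or 1.50- to 1.73-fold within 1 SE on either side. Of all listed genes, 202 (1.45%) were higher in E2 by a larger log2 difference, and genes lower in E2 are not in this count.

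Rxfp3 (ENSMUSG00000060735), the relaxin-3 receptor gene, lies on the minus strand of chromosome 15 at 11033717 to 11037991 and consists of a single exon of 4275 bases, 1419 of them coding. It too shared no exonic base with another model. Its log2 CPM was 2.80, 3.38 and 3.12 in OVX replicates 1 to 3 and 3.57, 3.48 and 3.45 in E2 replicates 1 to 3. The groups did not overlap, but only 0.07 lay between OVX replicate 2 and E2 replicate 3. The spread was on the OVX side, where the libraries covered 0.58, while the E2 libraries covered 0.11.

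The Rxfp3 level was 6.95, 10.4 and 8.67 CPM in OVX and 11.8, 11.2 and 10.9 CPM in E2. The reads behind it numbered 196, 355 and 243 in OVX and 358, 379 and 354 in E2. OVX replicate 1 was the lowest library for Rxfp3 and OVX replicate 2 came close to the E2 group. Group means were 3.10 ± 0.29 log2 CPM in OVX and 3.50 ± 0.06 in E2 (SD, n = 3 each), and the log2 difference was 0.40 ± 0.17 (SE), a 1.32-fold higher level in E2 (1.18- to 1.49-fold within 1 SE). The difference fell to 0.25 without OVX replicate 1 and was 0.54 without OVX replicate 2, so that single OVX libraries set much of its size. In the same OVX libraries the summed astrocyte markers stood at 1691, 2105 and 1752 CPM, in the same order as Rxfp3. In E2 replicates 1 to 3 they stood at 2131, 1846 and 2217 CPM, which is another order. Microglia sums (128, 159 and 131 CPM) and anterior pituitary sums (6.35, 1029 and 81.5 CPM) also had the Rxfp3 order in OVX. In E2 they too had another order (141, 123 and 144 CPM, and 124, 228 and 2.02 CPM). The remaining marker lists had another order in OVX. In E2 only the oligodendrocyte sums (2461, 1949 and 1742 CPM) had the Rxfp3 order. The part of RNA from any of these cells in the Rxfp3 values was not tested.

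**Figure D1:**
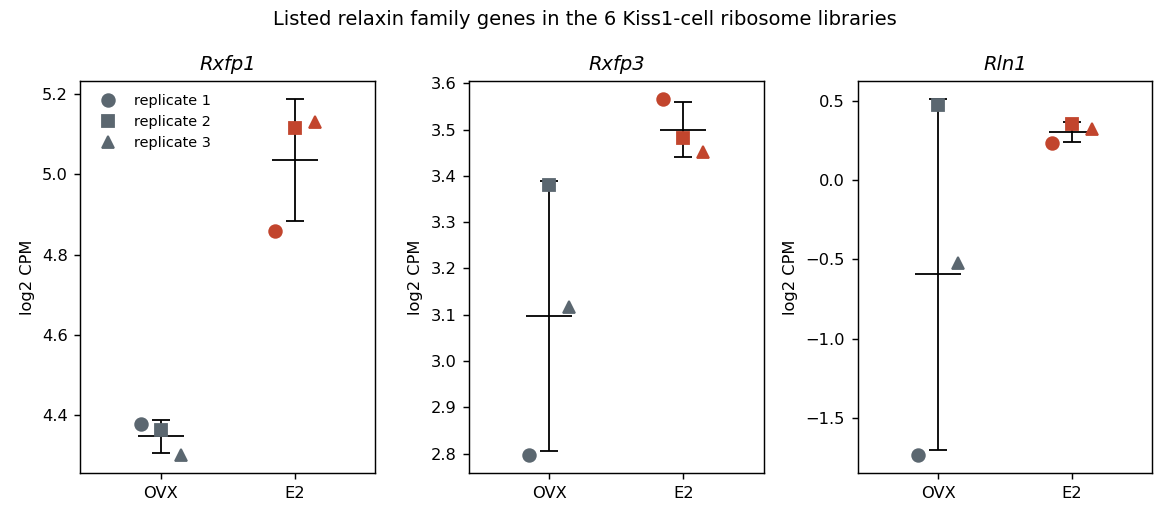
Level (log2 CPM, vertical axis, a separate scale in each panel) of Rxfp1, Rxfp3 and the relaxin gene Rln1 in the OVX (grey) and E2 (red) libraries, with 1 symbol for each replicate number and the group mean ± SD in black. Rxfp1 was tight in OVX and stood 0.48 or more higher in every E2 library, Rxfp3 and Rln1 were lowest in OVX replicate 1, and the Rln1 groups overlapped.

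Both listed receptors were thus higher in every E2 library than in any OVX library. The same was true of 6.85% of all listed genes (6.82% were lower in every E2 library). Among 54 other listed receptor genes for peptides and glycoprotein hormones, 8 were higher and 6 lower in every E2 library. Nothing is read from the 2 of 2, since the receptors were put forward for this contrast. Rxfp1 varied within groups about as much as genes of like level did, with a residual SD of 0.11 against a median of 0.12 for the 2533 genes within 0.5 log2 CPM of it. For Rxfp3 the residual SD was 0.21 against a median of 0.19 for 1679 genes.

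Rxfp2, the INSL3 receptor gene, was not listed. The table holds genes with a CPM above 1 in at least 3 libraries, and the level of a gene outside it is not known. The gene is present in the annotation at 150018675 to 150082184 on the plus strand of chromosome 5, with 18 exons and 2214 coding bases. Of its 5690 exonic bases, 294 also belong to Gm42557 on the opposite strand, and the library kit did not keep strand. Rxfp4, the fourth receptor of the family, has a single exon with 1245 coding bases and was not listed either. Rxfp1 and Rxfp3 had a CPM above 1 in all 6 libraries, so that neither was in the table through its E2 libraries alone.

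Between the receptors, levels were compared per kilobase of the longest transcript. Rxfp1 averaged a log2 CPM per kilobase of 2.26 and Rxfp3 one of 1.20. Within each library the log2 difference (Rxfp1 minus Rxfp3) was 1.25, 0.65 and 0.85 in OVX and 0.96, 1.30 and 1.35 in E2. By this length Rxfp1 was the higher receptor in 6 of 6 libraries, by 1.57 to 2.54 times. The group means of this difference were 0.92 ± 0.30 in OVX and 1.20 ± 0.21 in E2 (SD, n = 3 each), with overlapping libraries. The order rests on the length used: Rxfp1 has 10052 exonic bases over all its transcripts, and per kilobase of those its log2 level was 1.36 while that of Rxfp3 stayed at 1.20. With that length Rxfp3 was the higher receptor in OVX replicates 2 and 3.

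A list of 82 receptor genes for peptides and glycoprotein hormones, the 3 receptors included, gave a scale for these levels. Of them 56 were listed, from 4.98 log2 CPM per kilobase for Oprl1, the nociceptin receptor, to -2.32 for Cckar, a cholecystokinin receptor, with a median of 1.32. Rxfp1 took place 18. Next above it were Lgr4, a leucine-rich repeat receptor for R-spondins, at 2.39 and Calcr, the calcitonin receptor, at 2.36, and next below were Npffr1, a neuropeptide FF receptor, at 2.15 and Vipr1, a VIP receptor, at 1.87. The Rxfp1 libraries ran from 1.87 to 2.70 and overlapped those of 11 other receptors, these 4 among them. By group mean Rxfp1 was at place 21 in OVX and at place 16 in E2, and with all exonic bases as the length it was at place 25.

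Rxfp3 took place 30 of 56, near the middle. Above it stood Ntsr1, a neurotensin receptor, at 1.38 and Kiss1r, the kisspeptin receptor, at 1.27, and below it Mc4r, a melanocortin receptor, at 1.01 and Hcrtr1, an orexin receptor, at 0.94. Its libraries ran from 0.70 to 1.47 and overlapped those of 14 other receptors, these 4 among them. By group mean Rxfp3 was at place 30 in OVX and at place 27 in E2. Among all listed genes Rxfp1 held rank 8666 and Rxfp3 rank 10725 in level per kilobase, both in the lower part of the table.

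**Figure D2:**
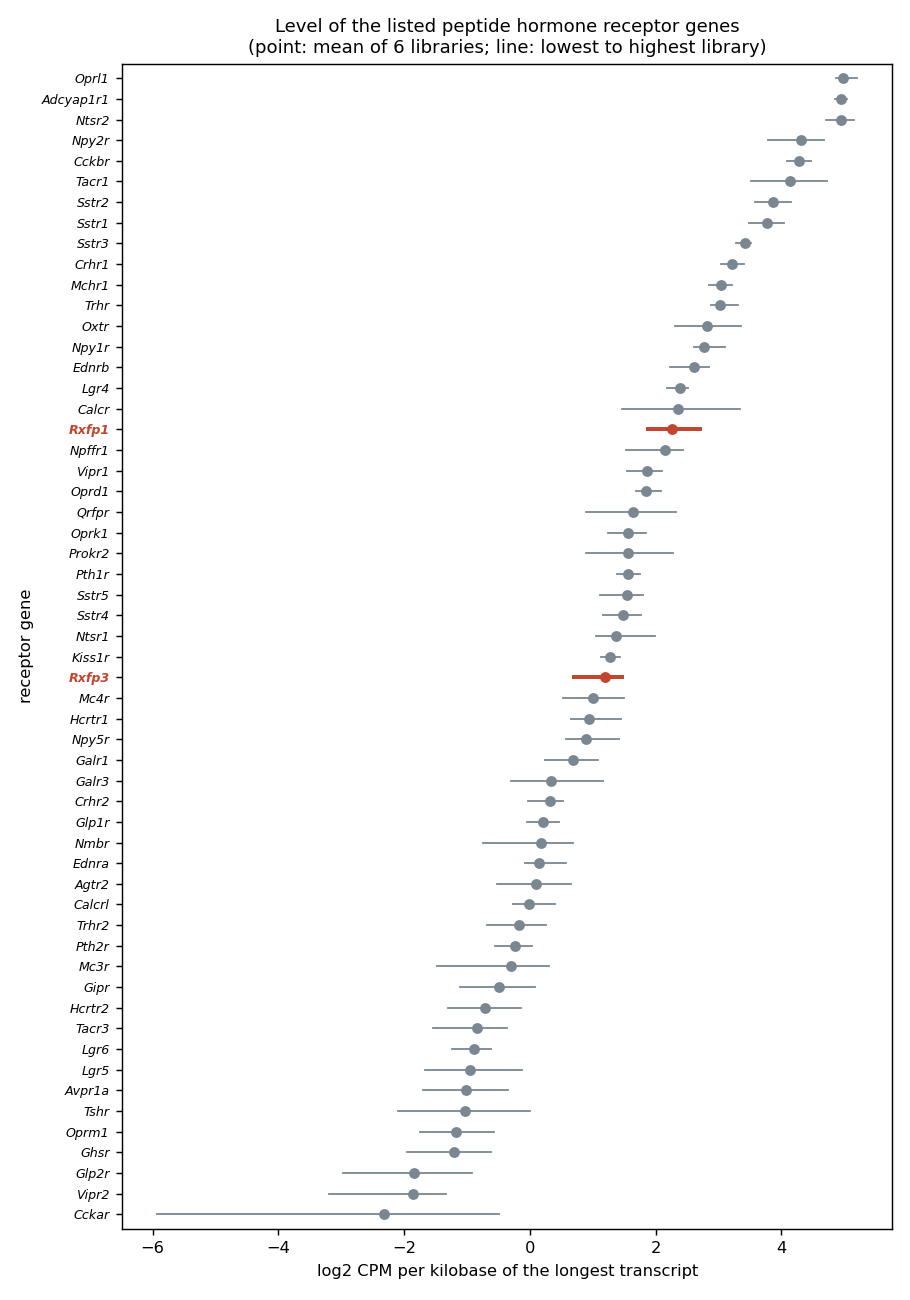
Level of the 56 listed peptide and glycoprotein hormone receptor genes (horizontal axis, log2 CPM per kilobase of the longest transcript; points are means of 6 libraries and lines run from the lowest to the highest library), ordered by mean. Rxfp1 (red, 2.26) was at place 18 and Rxfp3 (red, 1.20) at place 30, each overlapping its neighbours in the order.

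Without the relaxin receptors, 54 of 79 receptor genes in the list were measured, 33 higher and 21 lower in E2, with a median log2 difference of 0.08. Of the 54, 13 had an unadjusted p under 0.05 in limma, beside 8.56% of all listed genes. Groups did not overlap in 14, beside 13.7%, with 8 higher in E2 (6.85% of all listed genes) and 6 lower (6.82%). Past an adjusted p of 0.05 were 3 of the 54, all higher in E2, where 0.288% of all listed genes passed (limma, 40 of 13886; 0.230% higher and 0.0576% lower). Oxtr, the oxytocin receptor, rose by a log2 difference of 0.90 ± 0.09 (SE; limma, adjusted p = 0.000833) and Npy2r, an NPY receptor, by 0.70 ± 0.08 (limma, adjusted p = 0.00133). Prokr2, a prokineticin receptor, rose by 0.99 ± 0.17 (limma, adjusted p = 0.0211), a call that was lost without E2 replicate 1 (adjusted p = 0.0860), E2 replicate 2 (0.144) or OVX replicate 1 (0.0990). Without a mean-variance trend in the fit none of the 3 passed, with adjusted p of 0.175 for Oxtr, 0.279 for Npy2r and 0.402 for Prokr2. The lowest p among receptors that were lower belonged to Calcr, at -0.83 ± 0.23 (limma, adjusted p = 0.256). The 0.69 of Rxfp1 was close in size to that of Npy2r and the 0.40 of Rxfp3 was smaller than all 3.

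Of the relaxin family peptide genes, 1 of 5 was listed. Rln1 (ENSMUSG00000039097), which encodes relaxin, was near the limit of the table at 0.301, 1.39 and 0.695 CPM in OVX and 1.17, 1.28 and 1.25 CPM in E2. These were 8, 47 and 19 reads in OVX and 35, 43 and 40 in E2. The E2 libraries were alike, while OVX replicate 2 was the highest of all 6 and OVX replicate 1 the lowest, so that the groups overlapped. The log2 means were -0.59 ± 1.11 in OVX and 0.30 ± 0.07 in E2 (SD, n = 3 each), and the difference of 0.90 ± 0.59 (SE) did not pass the test (limma, adjusted p = 0.743). In OVX only replicate 2 was above 1 CPM, so Rln1 was in the table through its E2 libraries. A higher E2 level was thus favoured by the filter, and nothing is read from the direction of the difference. Rln3, the gene of the RXFP3 ligand, was not listed, nor were Insl3, Insl5 and Insl6.

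The genes through which these receptors are known to signal were measured in nearly every case. Over all pathway lists, with the relaxin family peptides, Rxfp4 and other leucine-rich repeat receptors included, 144 of 158 genes were listed. Of these, 73 were higher and 71 lower in E2, with a median log2 difference of 0.00 beside 0.00 for all listed genes. Of the 144, 1 passed the adjusted p of 0.05 in limma, beside 0.288% of all listed genes, and 7 had an unadjusted p under 0.05, beside 8.56%. Groups did not overlap in 17 of the 144, beside 13.7% of all listed genes, with 3 higher in E2 (6.85% of all listed genes) and 14 lower (6.82%). With so few calls over the whole table, nothing particular to a list is read from counts of 0 or 1.

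Among the other leucine-rich repeat receptors, 4 of 6 were listed and 0 passed. These 4 were also counted among the 54 receptors above. Lgr4, at place 16 in level per kilobase where Rxfp1 was at place 18, had a log2 difference of 0.12 ± 0.10 SE (limma, adjusted p = 0.807). Lgr5 had a difference of -0.48 ± 0.36 (SE; limma, adjusted p = 0.783), and the gonadotropin receptor genes Fshr and Lhcgr were not listed.

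On the Gs side used by RXFP1, 11 of 12 genes for Gs subunits and adenylyl cyclases were listed, 4 higher and 7 lower in E2, 0 past the threshold and a median log2 difference of -0.02. Gnas, which encodes the Gs alpha subunit, had the highest level per kilobase of the group (8.75 on the log2 scale) and a difference of -0.04. Adcy1, a neuronal calmodulin-stimulated cyclase, had the lowest p of those that were lower, at -0.24 ± 0.11 (limma, adjusted p = 0.563). Of 20 cAMP effector and CREB genes all were listed, 13 higher and 7 lower, with a median of 0.01. Prkar1b, a regulatory subunit of protein kinase A, was the highest of these per kilobase (8.85) and differed by -0.01, while the coactivator gene Ep300 stood at -0.16 (limma, adjusted p = 0.552) and the transcription factor gene Atf1 at 0.29 (adjusted p = 0.715). The 16 cAMP phosphodiesterases, which break cAMP down, were 7 higher and 9 lower with a median of -0.04, and Pde3b, at 0.32, had the lowest p of those higher (limma, adjusted p = 0.667). None of the genes of these 3 groups passed the threshold.

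On the Gi/o side used by RXFP3, 19 of 20 genes for alpha, beta and gamma subunits were listed, 12 higher and 7 lower in E2, with a median log2 difference of 0.04 and 0 past the threshold. Groups did not overlap in 3 of them, 1 higher in E2 (6.85% of all listed genes) and 2 lower (6.82%). The higher was Gng2, a gamma subunit, at 7.86, 7.93 and 8.04 log2 CPM in OVX and 8.13, 8.23 and 8.11 in E2. Its difference of 0.22 ± 0.06 (SE) missed the threshold (limma, adjusted p = 0.279). Gnb4, a beta subunit, was 1 of the 2 lower, with a difference of -0.15 ± 0.07 (limma, adjusted p = 0.605). The 7 arrestin and receptor kinase genes, which act in receptor shut-off, were 3 higher and 4 lower, and Grk4 had the lowest p with a difference of 0.47 ± 0.30 (limma, adjusted p = 0.737).

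Of 14 PI3K, AKT and atypical PKC genes 13 were listed, 4 higher and 9 lower in E2, with a median log2 difference of -0.04. All 25 ERK, JNK and p38 genes were listed, 10 higher and 15 lower, with a median of -0.01. Mapk13, a p38 kinase gene with a mean of only -0.44 log2 CPM, had the widest difference of these at 1.76 ± 0.70 SE (limma, adjusted p = 0.490). It was above 1 CPM only in OVX replicate 2 and E2 replicates 1 and 2. A higher E2 level of Mapk13 was thus favoured by the filter, as for Rln1. Of 11 nitric oxide and cGMP genes 10 were listed, 4 higher and 6 lower, with Nos1, the neuronal nitric oxide synthase gene, at 0.09 and Pde5a, a cGMP phosphodiesterase gene, at -0.46 (limma, adjusted p = 0.623).

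The 1 pathway gene past the threshold was among the matrix and TGF-beta genes, of which 18 of 21 were listed, 12 higher and 6 lower in E2 with a median of 0.02. Col1a1, which encodes a chain of type I collagen, stood at 2.53, 3.62 and 3.15 log2 CPM in OVX and 4.25, 4.06 and 4.53 in E2. Each E2 library was above each OVX library, and OVX replicate 1 was the lowest, as for Rxfp3 and Rln1. The difference was 1.18 ± 0.22 (SE; limma, adjusted p = 0.0469). The call was lost without any one of E2 replicates 1 (adjusted p = 0.129), 2 (0.101) and 3 (0.108) or OVX replicates 1 (0.0990) and 3 (0.104), and without a mean-variance trend (0.551). Col1a2, the gene of the other chain of the same collagen, was named after its value was seen and had a difference of 0.00 ± 0.26 (SE). Endothelial and mural markers summed to 194, 312 and 166 CPM in OVX replicates 1 to 3, another order than that of Col1a1. In E2 replicates 1 to 3 they summed to 251, 194 and 255 CPM, the same order as Col1a1. Astrocyte sums (1691, 2105 and 1752 CPM in OVX, 2131, 1846 and 2217 in E2) had the Col1a1 order in both groups. So did microglia sums (128, 159 and 131 CPM in OVX, 141, 123 and 144 in E2), and no other marker list did. The part of any of these cells in the Col1a1 values was not tested.

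**Figure D3:**
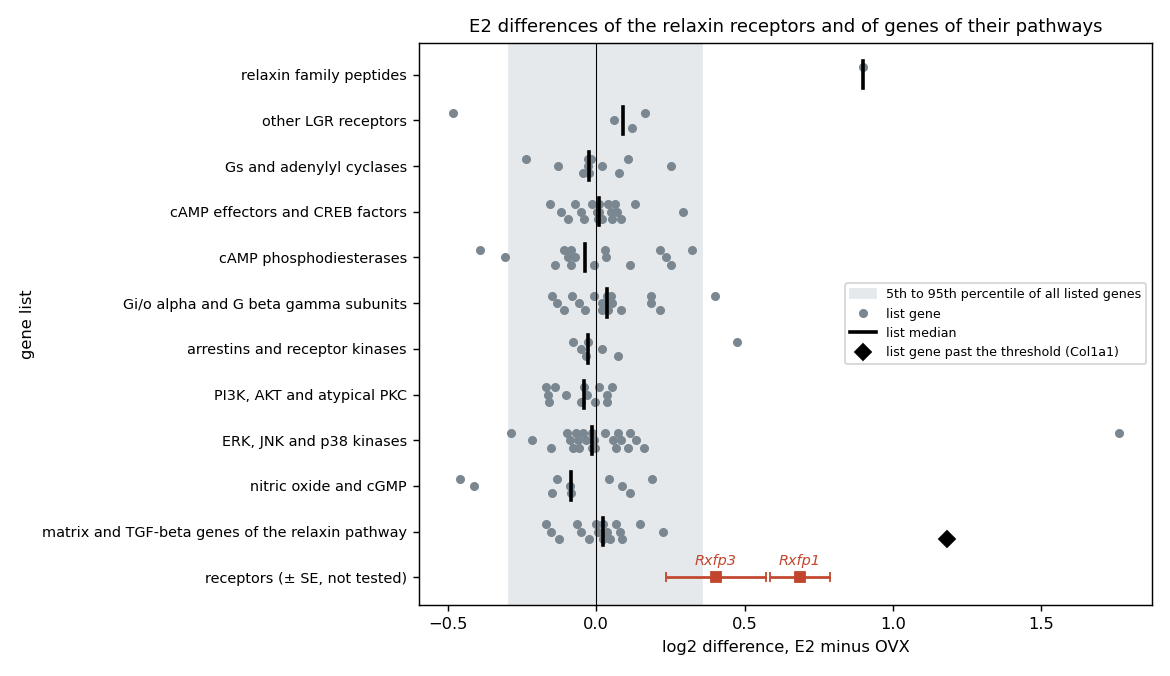
Log2 difference (E2 minus OVX, horizontal axis) of each listed gene of the relaxin pathway lists (grey points, list medians as black lines). The lists include other leucine-rich repeat receptors. Rxfp1 and Rxfp3 ± SE are in red in the lowest row. The range from the 5th to the 95th percentile of all listed genes is shaded. The list medians lay near 0 apart from the single ligand gene Rln1 (0.90), Col1a1 (black, 1.18) was the only list gene past the threshold, and Rxfp1 (0.69) and Rxfp3 (0.40) lay above the shaded range.

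Genes with a library profile like that of each receptor were sought by the root mean square (RMS) difference of log2 CPM over the 6 libraries, after each gene was centred on its own mean. Closest to Rxfp1, whose own RMS deviation was 0.36, were Fgfr1, an FGF receptor gene (RMS difference 0.08), Kcnk1, a potassium channel gene (0.09), Pdgfb, which encodes a platelet-derived growth factor chain (0.11), Oxtr (0.11) and Gm45951 (0.12). Of all genes, 2 lay within 0.1 of Rxfp1. Since the Rxfp1 profile is itself split by group, genes picked for likeness to it had to be split in the same way, and their differences are given as values only. All 5 were higher in each E2 library than in any OVX library, by mean log2 differences of 0.70 for Fgfr1, 0.67 for Kcnk1, 0.59 for Pdgfb, 0.90 for Oxtr and 0.67 for Gm45951. Fgfr1 shared with Rxfp1 the lower value of E2 replicate 1 within its group, at 7.50 log2 CPM against 7.81 and 7.67.

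Rxfp3 had a more common profile, with 34 genes within 0.1 of it and an own RMS deviation of 0.26. The closest were Pigz, a gene of GPI anchor synthesis (RMS difference 0.05), Shb, an adaptor protein gene (0.05), Itpripl2 (0.06), Ednrb, an endothelin receptor gene of astrocytes among other cells (0.06), and Arpin, an inhibitor of actin branching (0.06). As their choice by likeness implies, all 5 were lowest in OVX replicate 1 and had OVX replicate 2 as the highest of its group, as Rxfp3 did. Ednrb stood at 4.26, 4.74 and 4.44 log2 CPM in OVX and at 4.89, 4.79 and 4.76 in E2. The 6 libraries are the same for every gene here, so these likenesses include whatever a library shares over many genes.

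**Figure D4:**
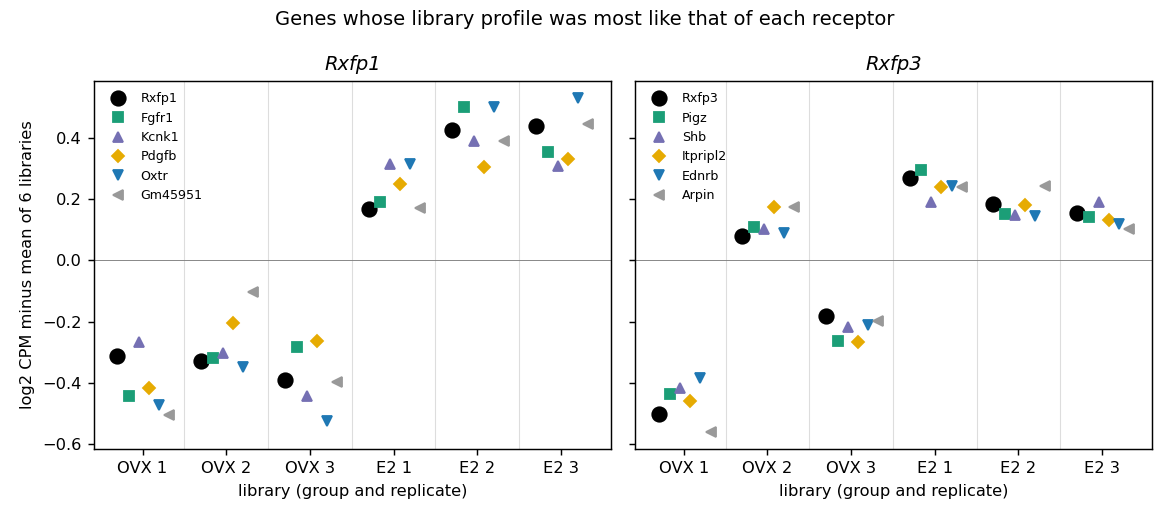
Log2 CPM minus the mean of 6 libraries (vertical axis) in each library (horizontal axis, shifted sideways by gene) for Rxfp1 and Rxfp3 (black) and the 5 genes with the smallest RMS difference from each. By the way they were picked, genes near Rxfp1 follow its split by group and those near Rxfp3 follow its low OVX replicate 1, with OVX replicate 2 close to the E2 libraries.

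The nearest listed genes on the chromosome had overlapping OVX and E2 groups. Beside Rxfp1 lie 4930579G24Rik, 8.79 kb away, with a log2 difference of -0.37 ± 0.42 (SE), and Tmem144, 74.7 kb away, with one of -0.02 ± 0.24. Beside Rxfp3 lie Amacr, 37.1 kb away, at -0.01 ± 0.13, and Tars, 344 kb away, at -0.09 ± 0.09. None of the 4 passed the threshold, the lowest adjusted p being 0.860 (limma).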

How the data were processed

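RNA pulled down with tagged ribosomes was measured in 6 libraries (3 OVX, 3 E2), each a separate pool of mice. The authors trimmed reads with Trimmomatic 0.38, aligned them with STAR 2.6.0a to GRCm38 (FastQC 0.11.8 for quality, per the submitters' notes), quantified genes with RSEM, kept protein-coding genes, and applied TMM scaling and voom, and deposited log2 CPM values, the unit used here. A deposited table of the authors' comparison (log2 fold change, statistic, p-values and group means) was not used.

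For the comparison of E2 with OVX, the deposited log2 CPM were fitted in limma (version 3.58.1, R 4.3.3) with a mean-variance trend, two-sided, and Benjamini-Hochberg adjustment over all 13886 genes, calls being an adjusted p under 0.05. The fit was checked on simulated data. For single genes an exact permutation test of 3 against 3 cannot go below 0.1 and was not used. Reads were rebuilt by taking each library's lowest value as 0 reads plus 0.5, and member values came out whole within 0.001. They cover counting only. Positions, lengths and sequences came from GENCODE M21 (GRCm38), another annotation release than that of the files.

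The receptors and gene lists were chosen with earlier results of these data known. Genes named are the receptors, the relaxin family peptides, Rxfp4 and Kiss1. In each list they are the called genes, the lowest p in each direction and the highest level per kilobase (not all are printed). The 5 nearest profiles, chromosome neighbours and the nearest receptors in level are named too. Same-numbered libraries did not deviate together (correlations across genes -0.02, -0.12 and -0.08), so numbers were not taken as pairs. Alternatives were another variance model, scaling, filter, pseudocount, length, a replicate block and each library left out.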

Additional observations from a re-analysis of the deposited data

How the results depend on the processing

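The log2 difference of Rxfp1 was 0.66 to 0.69 under the other variance models, scalings, filter and pseudocount and 0.64 to 0.77 with a library left out. That of Rxfp3 was 0.36 to 0.40 and, with a library left out, 0.25 (without OVX replicate 1) to 0.54 (without OVX replicate 2). Without a mean-variance trend 0 of all listed genes, 0 pathway genes and 0 other receptors passed the adjusted p (limma), with 1017, 7 and 14 at an unadjusted p under 0.05; the cause was not tested. With each library left out in turn, calls numbered 20 to 66 over all genes, 0 to 1 in the pathway lists and 2 to 3 among the receptors. All genes called numbered 26 without E2 replicate 1, 20 without E2 replicate 2, 66 without E2 replicate 3 and 21 without OVX replicate 1. With the replicate number as a block, 35 genes, 1 pathway gene and 3 receptors passed, and the SE became 0.11 for Rxfp1 and 0.18 for Rxfp3. With all exonic bases as the length, Rxfp1 moved from place 18 to 25 and Rxfp3 from 30 to 27. With 3 libraries a group, each a pool, small differences could not be shown: the median SE over genes was 0.107, and for a gene as low as Rln1, with 8 to 47 reads, it was 0.59.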
